A study of Mus musculus with 12 samples.

Results

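Mouse myeloid cells that expressed the leukaemia fusion protein AML1-ETO and kept both floxed copies of Tet2 were compared at passage 10 and at passage 2 of the same suspension culture scheme. The comparison is between 6 of the 12 arrays of the series, 3 at each passage, over the 16860 genes that could be tested, while the spread and the effect of the replicate number were estimated from all 12. The arrays carry the replicate numbers 1 to 3 at both passages, and equal numbers were taken as pairs. With the replicate number in the fit as a block, 6 genes fell between passage 2 and passage 10 and 1 rose. Of the 6, Kif11, Anln and Cdkn3 encode proteins of cell division, and all 71 measured genes of a list of mitosis and cytokinesis genes had lower means at passage 10, although only these 3 passed the test. Without the block no gene passed, and with the block in a fit to only the 6 floxed arrays none passed either (smallest adjusted p 0.394), so each call below depends on the pairing and on the spread taken from the whole series.

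AML1-ETO joins the DNA-binding part of the haematopoietic regulator Runx1 to the corepressor ETO, holds back myeloid differentiation and lets bone marrow progenitors replate and grow in cytokines. Progenitors that cycle transcribe a programme of S phase genes (replication, nucleotide synthesis, histones) and then a programme of G2 and M phase genes (kinesins, mitotic kinases, kinetochore and cytokinesis proteins). Promoters of the later programme often carry a CHR motif (cell cycle genes homology region), which is bound by MuvB complexes that repress these genes in resting cells and activate them before mitosis, and CCAAT boxes, which are bound by NF-Y.

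The cells came from bone marrow of Tet2fl/fl;CreER mice, enriched for Kit, transduced with the retrovirus MigR1-AE-IRES-GFP and selected by their GFP. They were replated for 3 rounds in methylcellulose before they were moved to suspension culture with SCF, IL-3 and IL-6. The Tet2fl/fl groups were given the ethanol vehicle for 2 passages (4 days), while the Tet2-/- groups of the series were given 4-OHT at 200 nM, which activates CreER. All groups share AML1-ETO, GFP, CreER and the floxed background, so no array represents marrow without the fusion protein. Cells were passaged every 2 days, and GFP+ CD11b- Gr1- CD16/32+ cells were sorted from the cultures for RNA. Nothing in the labels states that the 3 replicates were separate transductions or cultures. The p-values therefore cover only the scatter of these particular samples, which may be technical. No label names a processing batch. An effect of passage and an effect of the time at which the passages were processed cannot be told apart.

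The medians of the 6 arrays lay between 5.57 and 5.66 on the log2 scale, and arrays of the same group correlated at 0.986 to 0.990 across all rows. Their number limits the precision: 3 against 3 arrays allow no exact two-sided p below 0.10, and 3 pairs none below 0.25, so tests were run in a limma fit that borrows the spread across genes. The deviations of same-numbered Tet2fl/fl arrays from their group means correlated at 0.21, 0.45 and 0.27 for replicates 1, 2 and 3. The passage 10 array of replicate 2 stood apart for some gene groups: it was the lowest of the 6 arrays for 15.5% of all genes but for 83.3% of the late neutrophil granule genes and 84.5% of the mitosis genes. The passage 2 array of replicate 3 was the highest for 17.6% of all genes but for 91.5% of the mitosis genes. For many of the lists and genes below that either array moved, the value without it stands beside the result. It is not given for Ngp, Chil3, Cd44 and Aspa, although replicate 2 at passage 10 was their lowest array. Tet2 itself measured 9.94, 9.89 and 10.08 at passage 2 and 9.91, 9.80 and 9.93 at passage 10, with overlapping groups (difference -0.093 ± 0.075 SE, adjusted p = 0.597). The row for Tet2 ran from 9.64 to 9.98 in the arrays labelled Tet2-/-, so it gives no check of the deletion.

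The promoters of the 3 division genes that fell are shown because their list shares the CHR motif. The sequences are RefSeq's on GRCm38.p6, from 250 bases before the annotated start through the first 50 bases from it, written 5′ to 3′ on the gene's strand, with CHR motifs (TTTGAA, or TTCAAA where it lies on the other strand) and CCAAT boxes (CCAAT, or ATTGG on the other strand) in capitals.
Kif11, chr19:37376132-37376431, plus strand: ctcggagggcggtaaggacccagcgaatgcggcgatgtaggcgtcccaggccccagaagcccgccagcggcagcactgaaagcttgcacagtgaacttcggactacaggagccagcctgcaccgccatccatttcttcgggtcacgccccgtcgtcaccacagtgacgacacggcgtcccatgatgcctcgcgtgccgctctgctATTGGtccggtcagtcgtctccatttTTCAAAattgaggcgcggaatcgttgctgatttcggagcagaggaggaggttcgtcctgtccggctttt
Anln, chr9:22389157-22389456, minus strand: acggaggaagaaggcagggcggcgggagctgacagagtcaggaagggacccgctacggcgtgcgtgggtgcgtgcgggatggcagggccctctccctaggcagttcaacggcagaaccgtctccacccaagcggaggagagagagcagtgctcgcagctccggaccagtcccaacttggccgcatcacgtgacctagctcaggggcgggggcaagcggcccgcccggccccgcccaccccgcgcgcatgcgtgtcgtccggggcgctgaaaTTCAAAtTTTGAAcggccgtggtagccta
Cdkn3, chr14:46760291-46760590, plus strand: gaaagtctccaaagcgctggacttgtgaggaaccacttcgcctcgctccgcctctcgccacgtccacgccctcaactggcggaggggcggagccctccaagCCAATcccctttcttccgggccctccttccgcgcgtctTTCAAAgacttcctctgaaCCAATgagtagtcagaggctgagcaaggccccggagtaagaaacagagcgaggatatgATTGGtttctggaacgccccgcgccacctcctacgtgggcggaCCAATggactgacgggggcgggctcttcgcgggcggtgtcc
With the start base counted as 0, the Kif11 window holds a CHR motif at -19 to -14 and a CCAAT box at -45 to -41, both read on the other strand. The Anln window holds CHR motifs on both strands at 21 to 26 and 28 to 33, after the start, and no CCAAT box. The Cdkn3 window holds a CHR motif at -111 to -106 on the other strand and 4 CCAAT boxes, which begin at -149, -92, -34 and 9. A match is a description of the letters and no measurement of binding.

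Across all genes the passage difference was small. Its median was 0.031 on the log2 scale, and 42.1% of genes had a negative difference. At an adjusted p under 0.05 (Benjamini-Hochberg over the 16860 genes, 2-sided) the higher genes made up 0.00593% (1 gene) and the lower genes 0.0356% (6 genes), all with an adjusted p of 0.0466. An adjusted p under 0.10 was reached by 31 genes with higher values (0.184%) and 108 with lower ones (0.641%), and an unadjusted p under 0.05 by 1285 higher (7.62%) and 1080 lower genes (6.41%). The array groups did not overlap for 1347 genes that were higher (7.99%) and 1104 that were lower (6.55%). All 3 pairs were higher for 19.1% of genes and lower for 14%. Over 2-fold differences were found for 7 genes on the higher and 45 on the lower side. Without the block the smallest adjusted p was 0.317, 0 genes passed, and 1722 had an unadjusted p under 0.05 (964 higher and 758 lower). The split of genes at an unadjusted p under 0.05 depended on scaling: 54.3% were higher with the deposited values, 65.6% after setting the array medians equal and 69.0% after quantile normalization.

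Kif11 encodes the motor protein that pushes the poles of the spindle apart. It measured 10.15, 10.09 and 10.47 in replicates 1 to 3 at passage 2 and 9.65, 9.31 and 9.86 at passage 10. Every passage 10 array lay below every passage 2 array. The level fell by 0.63 ± 0.083 (SE), or 1.55-fold, from a mean of 10.24 ± 0.21 to 9.61 ± 0.28 (SD, n = 3 each; adjusted p = 0.0466, limma with the replicate block; 0.408 without it).

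Anln encodes anillin, which links actin, myosin and septins at the cleavage furrow. Its values were 9.43, 9.26 and 9.76 at passage 2 and 8.91, 8.57 and 9.02 at passage 10, again without overlap. It fell by 0.65 ± 0.077 (1.57-fold; adjusted p = 0.0466, 0.413 without the block). Cdkn3, a phosphatase that acts on cyclin-dependent kinases, measured 8.13, 8.34 and 8.41 and then 7.59, 7.50 and 7.86. It fell by 0.64 ± 0.084 (1.56-fold; adjusted p = 0.0466, 0.401 without the block). For both genes the 3 pairs moved by similar amounts, from -0.52 to -0.73 for Anln and from -0.54 to -0.83 for Cdkn3.

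Lrrk1 encodes a kinase with leucine-rich repeats. It measured 7.82, 7.79 and 8.21 at passage 2 and 7.06, 6.92 and 7.62 at passage 10, without overlap, and fell by 0.74 ± 0.097 (1.67-fold; adjusted p = 0.0466, 0.416 without the block). Lgr4, a receptor for R-spondins that strengthens Wnt signalling, was at low levels of 5.81, 6.20 and 6.81 and then 5.15, 5.23 and 5.91. Its groups overlapped, since replicate 3 at passage 10 lay above replicate 1 at passage 2, but each pair dropped, by 0.66, 0.98 and 0.90, and the fitted level fell by 0.85 ± 0.10 (1.80-fold; adjusted p = 0.0466, 0.413 without the block). Slco4c1, an organic anion transporter, had the largest difference among the 7. Its values were 6.41, 5.54 and 6.49 at passage 2 and 5.18, 3.63 and 5.30 at passage 10, where replicate 2 lay below the level of 4.70 that a row's mean had to reach. It fell by 1.44 ± 0.18 (2.72-fold; adjusted p = 0.0466, 0.431 without the block).

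Gsn was the only gene that rose. It encodes gelsolin, which severs and caps actin filaments. The arrays measured 9.003, 9.45 and 8.89 at passage 2 and 9.66, 10.06 and 9.34 at passage 10. The groups overlapped because replicate 2 was the highest at both passages and replicate 3 the lowest, while the pairs differed by 0.66, 0.61 and 0.46. It rose by 0.57 ± 0.076 (1.49-fold; adjusted p = 0.0466, 0.461 without the block). Of 35 actin regulators measured, 24 had positive and 11 negative differences, with a median of 0.033 against 0.031 for all genes.

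The calls were close to the threshold. Each of the 7 genes kept its direction under every alternative it was fitted in, and passed in 4 of 18 (Slco4c1), 6 of 19 (Lgr4) or 5 of 19 (the other 5). In the fit without the passage 10 array of replicate 2, their adjusted p was 0.150, and in the fit without the passage 2 array of replicate 2 it was 0.227. The arrays labelled Tet2-/-, compared in the same way, gave differences of -0.54 for Kif11, -0.75 for Anln, -0.39 for Cdkn3, -0.59 for Lrrk1, -0.22 for Lgr4, -0.75 for Slco4c1 and 0.92 for Gsn. The passage differences of these 7 genes did not pass a test of the genotype difference, with adjusted p-values of 0.942 or above.

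**Figure D1:**
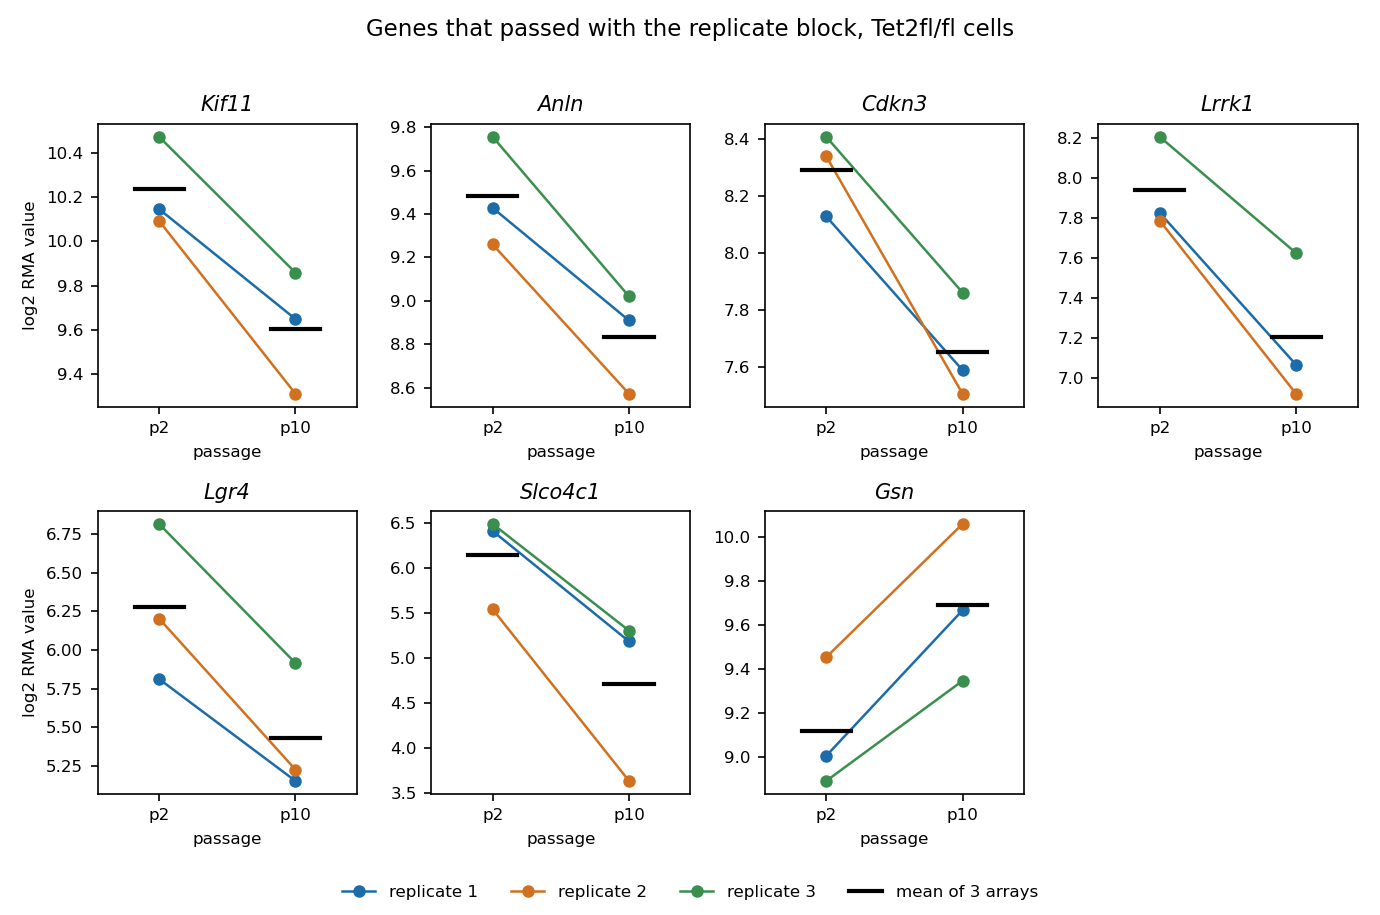
Log2 RMA values (y axis, a separate scale per gene that does not start at 0) of the 7 genes that passed, at passage 2 and passage 10 (x axis) in Tet2fl/fl cells. Points are arrays, lines join equal replicate numbers and black bars are means of 3 arrays; all 3 lines run downward for 6 genes and upward for Gsn, while the arrays of both passages overlap for Lgr4 and Gsn.

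The list of mitosis and cytokinesis genes had 71 measured members, and each of the 71 was tested. All 71 differences were negative, with a median of -0.49 and a range from -0.79 to -0.041, beside a median of 0.031 for all genes. The groups did not overlap for 60 of them, while 6.55% of all genes were lower without overlap. In 3 of 3 pairs 67 were lower, beside 14% of all genes. At an unadjusted p under 0.05, 64 were lower (54 without the block), beside 6.41% of all genes (758 of 16860 without the block). At an adjusted p under 0.05 the count was 3, and under 0.10 it was 32. The median difference was -0.28 in the pair of replicate 1, -0.63 in that of replicate 2 and -0.60 in that of replicate 3, so all pairs lay on the same side. Over all 71 genes the mean level was 8.54, 8.61 and 8.87 at passage 2 and 8.28, 8.01 and 8.29 at passage 10. Leaving out the passage 10 array of replicate 2 gave a median of -0.48, and leaving out the passage 2 array of replicate 3 gave -0.53.

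Among the members by role, the 13 kinesin motors had a median difference of -0.59. Kif23, the motor of the central spindle, measured 9.26, 9.66 and 9.49 and then 8.86, 8.39 and 8.80 (difference -0.79 ± 0.15, adjusted p = 0.0768), without overlap between passages. At the other end of this class Kifc1, a minus-end motor, was low throughout and nearly level, with values of 5.59 to 5.73 at passage 2 and 5.59 to 5.64 at passage 10. The 7 cytokinesis genes had a median of -0.57 and the 8 spindle microtubule genes one of -0.49. In both classes every member was lower at passage 10 without overlap. Aspm, which organises spindle poles, measured 8.12, 8.07 and 8.37 and then 7.69, 7.09 and 7.63 (difference -0.72 ± 0.13, adjusted p = 0.0666).

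The 16 mitotic kinases, cyclins and their regulators had a median of -0.47. Plk1, the polo kinase that drives entry into and exit from mitosis, measured 9.96, 9.85 and 10.16 and then 9.44, 9.01 and 9.52 (difference -0.66 ± 0.11, adjusted p = 0.0571). Foxm1, a transcription factor of the G2 and M phase programme, measured 7.69, 7.79 and 8.16 and then 7.32, 7.09 and 7.41 (difference -0.61 ± 0.093, adjusted p = 0.0511). Neither pair of groups overlapped. The 17 genes of the kinetochore and the spindle checkpoint had a median of -0.42. Bub1, a checkpoint kinase, differed by -0.68 ± 0.15, while its partner Bub3 differed by -0.13 ± 0.086. Sgo1, which protects the cohesion of sister chromatids, was the nearest to the threshold, with 8.12, 8.13 and 8.52 and then 7.61, 7.55 and 7.80 (difference -0.60 ± 0.083, adjusted p = 0.0508). Knl1, the kinetochore scaffold that recruits Bub1, differed by -0.67 ± 0.10 (adjusted p = 0.0511). The 6 condensin and chromosome scaffold genes had a median of -0.49, and the 4 genes of anaphase a median of -0.40.

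Replication genes differed in the same direction by less. Of 60 measured members, 58 were negative. At an unadjusted p under 0.05, 41 were lower (34 without the block), beside 6.41% of all genes (758 of 16860 without the block). Groups did not overlap for 38, beside 6.55% of all genes, and 0 passed the adjusted threshold of 0.05 (3 under 0.10). The list's median was -0.38, with -0.13, -0.40 and -0.53 in the pairs of replicates 1, 2 and 3. Leaving out the passage 10 array of replicate 3 moved it to -0.24, with 20 genes at an unadjusted p under 0.05. That count was 23 without the passage 2 array of replicate 2 and 27 without that of replicate 3. All 7 measured MCM genes, the 6 subunits of the helicase that unwinds DNA and the separate replication factor Mcm10, were lower without overlap, from -0.50 for Mcm5 to -0.20 for Mcm3. Mcm5 measured 10.28, 10.51 and 10.56 at passage 2 and 10.09, 9.88 and 9.89 at passage 10 (adjusted p = 0.249), so the pair of replicate 1 was the closest.

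The 9 genes of nucleotide synthesis had a median of -0.42. Rrm2, the small subunit of ribonucleotide reductase, measured 9.44, 9.81 and 9.82 and then 9.14, 9.18 and 8.91 (difference -0.61 ± 0.15, adjusted p = 0.153). Dut, which removes dUTP, differed by -0.52 ± 0.12. Among 7 fork repair genes the median was -0.48. Brca2, a repair protein of stalled and broken forks, had the largest difference of the list, with 7.87, 7.88 and 8.21 and then 7.50, 7.06 and 7.52 (difference -0.62 ± 0.10, adjusted p = 0.0586). The S phase cyclin gene Ccna2 measured 10.56, 10.63 and 10.86 and then 10.29, 9.99 and 10.33 (difference -0.48 ± 0.091, adjusted p = 0.0759). The 2 members with positive differences were Rfc2, a clamp loader subunit (0.18 ± 0.085), and E2f2, an activating E2F factor (0.12 ± 0.11).

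Replication-dependent histone genes supply chromatin in S phase. Their transcripts mostly lack a poly(A) tail, and the rows here are whole-transcript probe sets. Of 17 measured above the level filter (4 more lay below it), 16 had negative differences. At an unadjusted p under 0.05, 13 were lower, beside 6.41% of all genes, and 0 passed after adjustment. The median was -0.42, or -0.23, -0.38 and -0.74 by pair, and the passage 2 array of replicate 3 was the highest for 15 of the 17. Without that array the median was -0.35, with 9 lower at an unadjusted p under 0.05. H4c9 measured 7.59, 7.56 and 7.73 and then 7.21, 7.09 and 7.01 (difference -0.52 ± 0.083, adjusted p = 0.0511), without overlap. H2bc12 measured 10.93, 10.76 and 11.19 and then 10.59, 10.24 and 10.28, also without overlap. The exception, H2ac1, differed by 0.080 ± 0.21. Histone genes are near-identical copies, so their rows may share probes' targets.

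**Figure D2:**
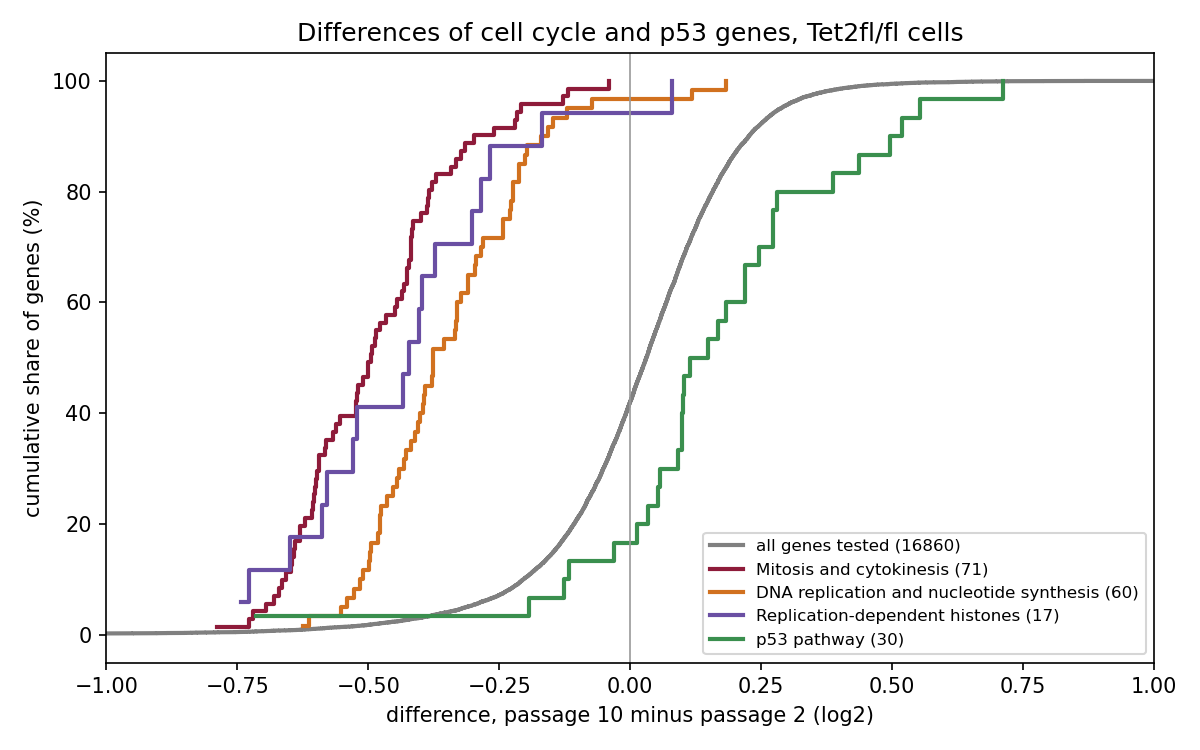
Cumulative share of genes (y axis, %) against the fitted difference between passage 10 and passage 2 (x axis, log2, drawn from -1 to 1) in Tet2fl/fl cells, for all 16860 genes and 4 lists. The curves of mitosis (median -0.49), histone (-0.42) and replication genes (-0.38) lie left of the curve of all genes (0.031), and that of the p53 pathway genes (0.13) lies to its right except at its lowest member.

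The mitosis list was also described by its promoter sequences, into which no expression value enters. Of its 71 genes, 59 had a window in RefSeq's promoter table, and 42 of these (71.2%) held a CHR motif, beside 12.7% of the 13082 tested genes with a window. CCAAT boxes were in 69.5% against 37.7%, and both motifs together in 57.6% against 5.18%. Replication genes had a different make-up: of 50 with a window, 18% held a CHR motif, and 28% held an E2F motif (TTTCCCGC or TTTGGCGC, both strands), beside 2.64% of tested genes and 6.78% of mitosis genes. In a window of 150 bases, from 100 before the start, the CHR motif was in 62.7% of mitosis promoters and 4.98% of all. These shares describe the lists and were not tested.

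Regulators that hold the cell cycle back did not share a direction. Of 25 genes of quiescence and cell cycle brakes, 18 were positive and 7 negative, with a median of 0.058 (0.0097 without the passage 10 array of replicate 3). At an unadjusted p under 0.05 there were 3 in each direction, beside 7.62% higher and 6.41% lower of all genes. Cdkn2a, which encodes the inhibitor p16 and the p53 activator p19Arf, measured 8.55, 8.75 and 8.60 at passage 2 and 8.90, 9.07 and 9.27 at passage 10, without overlap (difference 0.45 ± 0.13, adjusted p = 0.199). The row does not separate the 2 proteins. Btg2, an antiproliferative gene that p53 induces, measured 8.03, 8.21 and 8.25 and then 8.62, 8.34 and 9.09 (difference 0.52 ± 0.21, adjusted p = 0.314). On the other side, Lin9, a subunit of the MuvB complex that binds CHR motifs, measured 7.72, 7.89 and 8.20 and then 7.48, 7.24 and 7.63 (difference -0.49 ± 0.092, adjusted p = 0.0748). Rbl1, the pocket protein p107, differed by -0.36 ± 0.094.

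Targets of p53 were mostly higher at passage 10. Of 30 measured above the filter (1 more lay below it), 25 were positive, and 0 passed the adjusted threshold. At an unadjusted p under 0.05, 9 were higher (6 without the block), beside 7.62% of all genes (964 of 16860 without the block). The median was 0.13 against 0.031 for all genes, and 0.059, 0.11 and 0.26 by pair. Ddit4, an inhibitor of mTORC1 that p53, hypoxia and other stresses induce, measured 9.42, 9.22 and 9.01 and then 10.05, 9.68 and 10.06 (difference 0.71 ± 0.15, 1.64-fold, adjusted p = 0.102). Trp53inp1, Zmat3 and Bbc3 (the proapoptotic protein Puma) differed by 0.50 ± 0.13, 0.55 ± 0.17 and 0.44 ± 0.14, each higher in 3 of 3 pairs. Other targets moved less: Cdkn1a, Ccng1, Fas, Sesn1 and Mdm2 differed by 0.058, 0.098, 0.099, 0.11 and 0.17. The list median was 0.20 without the passage 10 array of replicate 2, 0.094 without that of replicate 3 and 0.072 without replicate 3 in all groups, and 4 members were higher at an unadjusted p under 0.05 without the passage 10 array of replicate 3. Among the 5 negative members Trp53i11 had the largest difference, with 8.03, 7.98 and 8.27 and then 7.27, 7.50 and 7.36 (difference -0.71 ± 0.12, adjusted p = 0.0586).

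Ribosome biogenesis and Myc target genes were mostly lower by small amounts: 42 of 48 were negative, with a median of -0.19. At an unadjusted p under 0.05, 8 were lower, beside 6.41% of all genes. The pair of replicate 1 had a median of 0.0094 and the other two -0.16 and -0.36. Without the passage 10 array of replicate 3 the list median was -0.091, with 1 gene lower at an unadjusted p under 0.05. That count was 16 without the passage 10 array of replicate 1, and it was 4 and 2 without the passage 2 arrays of replicates 2 and 3. Nop56, a core protein of box C/D snoRNPs, measured 10.12, 10.26 and 10.30 and then 10.09, 9.87 and 9.70 (difference -0.34 ± 0.12, adjusted p = 0.271). Polr1b, a subunit of RNA polymerase I, differed by -0.38 ± 0.16, and Mxd4, an antagonist of Myc, differed by 0.36 ± 0.10. Small nucleolar RNAs had no shared direction, with 28 positive and 38 negative of 66. Among them Snora20 measured 5.80, 6.07 and 6.34 and then 5.68, 5.05 and 5.05 (difference -0.81 ± 0.19, adjusted p = 0.145).

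**Figure D3:**
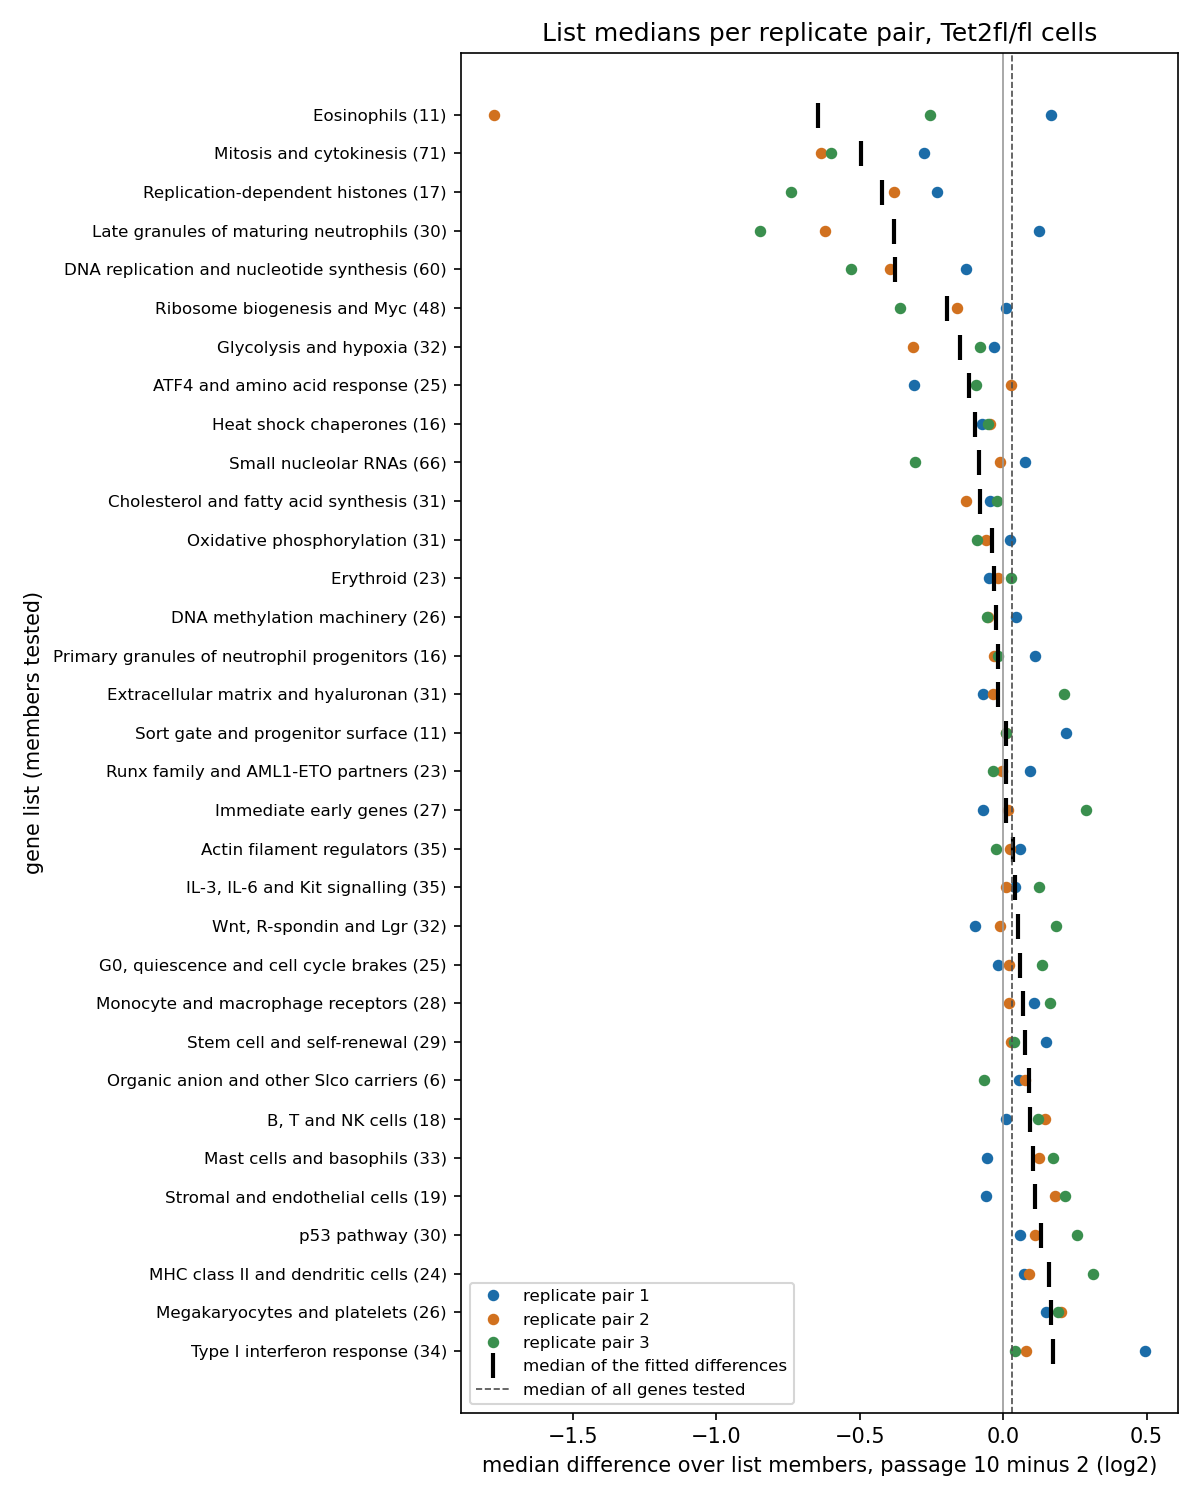
Median difference over the members of each gene list (x axis, log2, passage 10 minus passage 2; y axis, lists with the number of members tested) in each replicate pair of Tet2fl/fl cells (points) and in the fit (black bars). The mitosis, histone and replication lists lie below 0 in all 3 pairs, whereas the eosinophil list (0.17, -1.78 and -0.26) and the late granule list (0.13, -0.62 and -0.85) do not keep a side.

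Granule genes differed widely between replicates. Late granule genes of maturing neutrophils had a median of -0.38, with 28 of 30 negative. At an unadjusted p under 0.05, 9 were lower (1 without the block), beside 6.41% of all genes (758 of 16860 without the block). Groups that did not overlap were found for 0 of them, while 6.55% of all genes were lower without overlap. Ngp, a protein of specific granules, measured 8.27, 8.15 and 9.74 at passage 2 and 8.26, 5.89 and 7.27 at passage 10 (difference -1.58 ± 0.46, adjusted p = 0.202). S100a8, a subunit of calprotectin, measured 9.92, 8.91 and 10.90 and then 9.82, 5.84 and 9.33 (difference -1.58 ± 0.54, adjusted p = 0.249; -0.76 without the passage 10 array of replicate 2). In both genes the pair of replicate 1 was nearly equal, at -0.0093 and -0.097. The pair of replicate 2 differed by -2.26 and -3.08, and that of replicate 3 by -2.48 and -1.58. Chil3, a chitinase-like protein of neutrophils and macrophages, differed by -0.34, -2.51 and -1.06 in the pairs of replicates 1, 2 and 3. Without the passage 10 array of replicate 2 the list's median was -0.18, with 3 genes lower and 2 higher at an unadjusted p under 0.05, and without the passage 2 array of replicate 3 it was -0.22, with 2 lower. Leaving out the passage 10 array of replicate 1 instead gave -0.61, with 15 lower, and the count was 5 without the passage 2 array of replicate 2. The mean level of 8 neutrophil markers was 7.64 to 9.28 in the passage 2 arrays and 6.37 to 8.18 in the passage 10 arrays. In RNA from sorted pools, fewer cells of a type and less RNA per cell cannot be told apart.

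Primary granule genes, which promyelocytes transcribe before the late ones, had a median of -0.019 over 16 genes (0.0058 without the passage 10 array of replicate 2). Elane, the neutrophil elastase gene, measured 11.87, 10.85 and 12.03 and then 11.63, 8.27 and 10.70 (difference -1.38 ± 0.41, adjusted p = 0.207; -0.74 without the passage 10 array of replicate 2). Mpo, myeloperoxidase, measured 12.29, 11.98 and 12.47 and then 12.44, 10.90 and 11.80 (difference -0.54 ± 0.21; -0.29 without that array). Cebpa, the transcription factor of granulocyte commitment, measured 7.98, 7.88 and 8.10 and then 8.75, 8.10 and 8.50 (difference 0.46 ± 0.20, adjusted p = 0.348). The lowest array for both granule enzymes was thus replicate 2 at passage 10, which also had the lowest value of its passage for Cebpa.

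The eosinophil list had the lowest median, -0.65 over 11 genes, and it rested on replicate 2. Epx, eosinophil peroxidase, measured 10.67, 11.04 and 10.98 at passage 2 and 10.63, 8.21 and 10.35 at passage 10 (difference -1.17 ± 0.58, adjusted p = 0.398). Prg2, major basic protein, measured 11.47, 11.65 and 11.42 and then 11.60, 8.94 and 10.87 (difference -1.04 ± 0.56, adjusted p = 0.426). Both were lower by more than 2 in the pair of replicate 2 and by less than 1 in that of replicate 3. Without the passage 10 array of replicate 2 the differences were -0.64 for Epx and -0.42 for Prg2, and the list's median was -0.14. It was -0.24 without the passage 2 array of replicate 2, and -0.80 or lower without either array of replicate 1. The passage 10 array of replicate 2 was lowest for 60 of 71 mitosis genes, whose median was -0.49 with it and -0.48 without it.

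**Figure D4:**
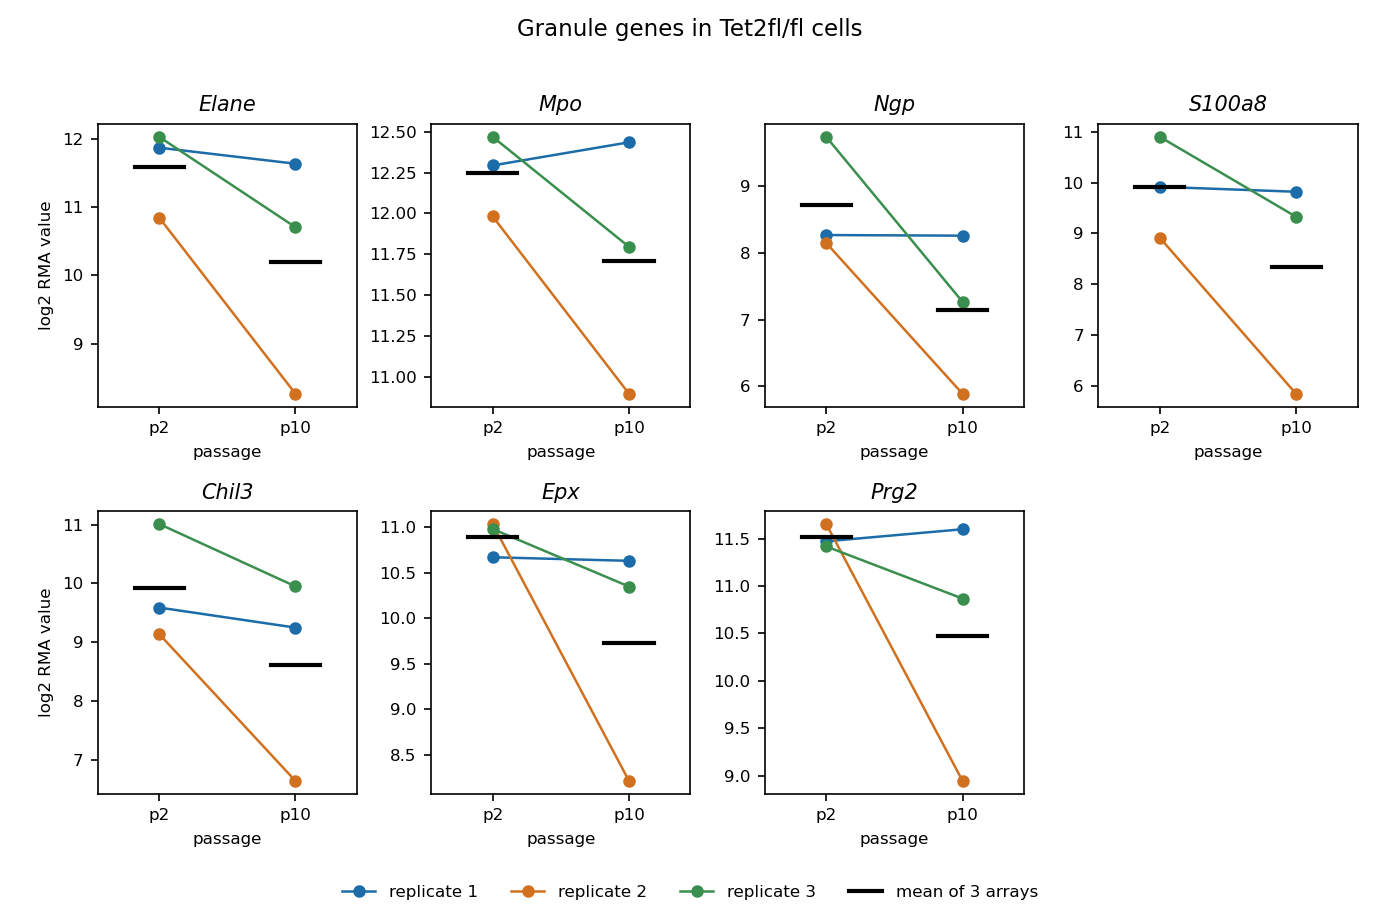
Log2 RMA values (y axis, a separate scale per gene that does not start at 0) of 7 granule genes at passage 2 and passage 10 (x axis) in Tet2fl/fl cells. Points are arrays, lines join equal replicate numbers and black bars are means of 3 arrays; replicate 2 at passage 10 is the lowest point in every panel, and the line of replicate 1 is nearly level for Ngp (-0.0093), S100a8 (-0.097) and Epx (-0.039).

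Among other lineages, megakaryocyte and platelet genes were positive for 22 of 26 members, with a median of 0.17 (0.15, 0.20 and 0.19 by pair). At an unadjusted p under 0.05, 8 were higher with the block, beside 7.62% of all genes. Without the block 1 of 26 was, beside 964 of all 16860 genes. Ppbp, a platelet chemokine that is also made by myeloid cells, had the largest positive difference of the genes the naming rule took, with 7.00, 7.50 and 7.50 at passage 2 and 9.50, 8.98 and 8.83 at passage 10 (difference 1.77 ± 0.42, 3.40-fold, adjusted p = 0.145). Every passage 10 array lay over 1 unit above every passage 2 array. Itgb3, integrin beta 3, measured 8.82, 9.59 and 8.82 and then 9.65, 9.90 and 9.35 (difference 0.56 ± 0.10, adjusted p = 0.0704). Pf4 differed by 0.65 ± 0.23, and F5, coagulation factor V, by -1.03 ± 0.40 (-0.40 without the passage 10 array of replicate 2). Without the passage 10 array of replicate 2, 5 members were higher at an unadjusted p under 0.05. The 4 measured megakaryocyte marker genes had a mean level of 7.97 to 8.13 at passage 2 and 8.33 to 9.26 at passage 10.

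Mast cell and basophil genes were at high levels at both passages. Their 7 marker genes averaged 11.65 to 11.86 at passage 2 and 11.68 to 12.32 at passage 10, with Cpa3 at 13.34, and the list of 33 genes had a median difference of 0.10, or 0.18 without the passage 10 array of replicate 1 and 0.041 without that of replicate 3. Slc18a2, the vesicular amine transporter, measured 10.91, 11.45 and 10.74 and then 11.11, 11.82 and 11.29 (difference 0.37 ± 0.10, adjusted p = 0.182). Markers of B cells (5.31 to 5.58 over both passages), T or NK cells (4.71 to 5.07) and dendritic cells (5.03 to 5.55) stayed near the lower end of the scale.

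Monocyte and macrophage receptor genes were positive for 17 and negative for 11 of 28 members (median 0.069). At an unadjusted p under 0.05, 6 of the 28 were higher, beside 7.62% of all genes. The median was 0.033 without the passage 10 array of replicate 3 and 0.12 without the passage 2 array of replicate 2. Cd68, a lysosomal glycoprotein of macrophages, measured 9.90, 9.36 and 9.32 and then 10.90, 9.95 and 9.89 (difference 0.72 ± 0.20, adjusted p = 0.184), and each of its pairs was higher at passage 10. Clec4e, the receptor Mincle, differed by 0.44 ± 0.10 without overlap, and Ccr2, the chemokine receptor of inflammatory monocytes, by 0.51 ± 0.17. The largest difference of the list was that of Clec7a, the receptor Dectin-1, which measured 7.24, 6.88 and 7.83 and then 7.43, 4.98 and 6.88 (difference -0.89 ± 0.41, adjusted p = 0.364; -0.41 without the passage 10 array of replicate 2). Genes of MHC class II and dendritic cells were positive for 20 of 24 members (median 0.16). At an unadjusted p under 0.05, 6 were higher and 1 lower, beside 7.62% and 6.41% of all genes. The list's mean level was 6.33 to 6.56 at passage 2 and 6.58 to 6.64 at passage 10. Cd209a differed by 0.49 ± 0.16 without overlap, and H2-Ob by 0.53 ± 0.19. The largest negative difference was that of the class II gene H2-Ab1, with 8.27, 7.44 and 6.30 and then 8.31, 6.41 and 5.96 (difference -0.44, or -0.013 without the passage 10 array of replicate 2).

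Interferon response genes were positive for 28 of 34 members, with a median of 0.17. At an unadjusted p under 0.05, 6 were higher (4 without the block), beside 7.62% of all genes (964 of 16860 without the block). The pair of replicate 1 had a median of 0.49 and the other pairs 0.080 and 0.041. Leaving out an array of replicate 1 gave a median of 0.058 (passage 10) or 0.084 (passage 2), and leaving out the passage 10 array of replicate 2 gave 0.30. Over the fits tried, the list's median ranged from 0.037 to 0.30. The list's median minus that of all genes ranged from -0.0015 to 0.27. Ifitm3, a membrane protein that blocks virus entry, measured 9.65, 9.51 and 9.61 at passage 2 and 10.27, 9.72 and 10.31 at passage 10 (difference 0.51 ± 0.10, adjusted p = 0.0830). In the arrays labelled Tet2-/- it measured 9.48, 9.12 and 9.62 at passage 2 and 8.68, 8.22 and 8.78 at passage 10 (difference -0.85 ± 0.10, adjusted p = 0.00688). All 3 pairs were higher in the floxed cells and all 3 were lower in the others. The difference between the passage effects of both genotypes was -1.35 (adjusted p = 0.0432, limma with the block), and Ifitm3 was the only one of 16860 genes to pass that test, against 838 at an unadjusted p under 0.05. That test is reported for the main fit only. Zbp1, a sensor of nucleic acids, differed by 0.67 ± 0.13 in floxed cells (adjusted p = 0.0830).

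Metabolic lists had negative medians, and 5 of 32, 2 of 31 and 4 of 31 of their members were lower at an unadjusted p under 0.05. Over all genes that share was 6.41%, so the count for oxidative phosphorylation (2 of 31) was near it. Glycolysis and hypoxia genes were negative for 25 of 32 members (median -0.15; -0.032, -0.32 and -0.080 by pair), oxidative phosphorylation genes for 24 of 31 (median -0.041) and genes of cholesterol and fatty acid synthesis for 22 of 31 (median -0.081). The oxidative phosphorylation median was 0.024 without the passage 2 array of replicate 2, and the cholesterol median was -0.033 without that of replicate 1. The glycolysis median was -0.25 without the passage 10 array of replicate 1 and -0.057 without that of replicate 2. Vegfa, a growth factor that hypoxia induces, measured 9.72, 9.22 and 9.41 and then 9.62, 8.31 and 8.93 (difference -0.50 ± 0.20; -0.21 without the passage 10 array of replicate 2). Of 25 genes of the amino acid response driven by Atf4, 15 were negative (median -0.12; -0.028 without the passage 2 array of replicate 1 and -0.072 without the passage 10 array of replicate 3). Asns, asparagine synthetase, stood lowest among them with 9.005, 8.40 and 8.56 and then 7.72, 7.30 and 7.95 (difference -1.0 ± 0.17, 2.00-fold, adjusted p = 0.0585), and no passage 10 array reached the passage 2 range. Sesn2, another gene of this response, differed by 0.25 ± 0.081.

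Several single genes had larger differences than the called genes other than Slco4c1, without passing. Hapln1, which links hyaluronan to proteoglycans, measured 6.39, 6.81 and 5.80 at passage 2 and 4.41, 4.26 and 4.95 at passage 10, (difference -1.79 ± 0.28, adjusted p = 0.0511). Its passage 10 mean of 4.54 was below the level of 4.70 that rows had to reach on average, so the row passed the filter through its passage 2 values. Cd44, the receptor for hyaluronan, measured 7.09, 7.32 and 7.61 and then 6.09, 5.15 and 6.79 (difference -1.33 ± 0.31, adjusted p = 0.131). Hmmr, a hyaluronan-binding protein that works at the spindle, differed by -0.63 ± 0.11 (adjusted p = 0.0586). The list of 31 matrix and hyaluronan genes as a whole had 15 positive and 16 negative members.

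Aspa, aspartoacylase, measured 6.12, 6.34 and 7.06 and then 5.55, 4.22 and 5.24 (difference -1.51 ± 0.27, adjusted p = 0.0633). Its passage 10 value in replicate 2 lay below the filter level of 4.70, as did its Tet2-/- means of 4.44 and 4.47. The row passed the filter through its floxed passage 2 values. Ch25h, cholesterol 25-hydroxylase, measured 7.75, 8.59 and 7.88 and then 6.19, 6.79 and 7.23 (difference -1.34 ± 0.29, adjusted p = 0.110). Both were lower in every pair. For Tfec, a transcription factor of the Mitf family, and Gca, a calcium-binding protein of granulocytes, replicate 2 carried much of the difference: Tfec measured 8.97, 8.59 and 9.69 and then 8.42, 5.90 and 8.52. Without the passage 10 array of replicate 2 the difference of Tfec was -1.01 in place of -1.47, and that of Gca -0.80 in place of -1.36. Ighm, the immunoglobulin mu locus, went likewise from -1.10 to -0.72.

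On the higher side, Brinp1 measured 7.07, 7.57 and 6.64 and then 8.97, 8.48 and 8.14 (difference 1.44 ± 0.39, 2.72-fold, adjusted p = 0.178). Csrp3, a LIM protein of muscle, had pairs of 0.93, 0.84 and 0.83, with values of 7.15, 7.89 and 7.19 and then 8.09, 8.73 and 8.02 (difference 0.87 ± 0.13, adjusted p = 0.0511). Its groups did not overlap, but their gap was smaller than the spread within each group. Tlr13, a receptor for bacterial ribosomal RNA, differed by 0.72 ± 0.28, and Upp1, uridine phosphorylase, by 0.68 ± 0.15.

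Of 11 measured genes of the sort gate and of progenitor surface markers, 6 were positive and 5 negative. An unadjusted p under 0.05 was reached by 0 of them, beside 7.62% higher and 6.41% lower of all genes. Itgam, which encodes CD11b, measured 8.13, 7.77 and 8.31 and then 8.78, 7.04 and 8.21 (difference -0.066 ± 0.28), so its pairs lay on both sides of 0. Fcgr3 and Fcgr2b, whose products CD16 and CD32 the gate selects, differed by 0.0087 ± 0.086 and 0.058 ± 0.084. Ly6g, of the same list, had pairs of 0.77, 0.011 and -1.04 (difference -0.084 ± 0.33). Ly6c2 was high, with 11.77, 12.02 and 11.94 and then 11.49, 12.04 and 12.01 (difference -0.0655 ± 0.11). Kit, the receptor for SCF, measured 10.92, 10.44 and 10.63 and then 11.14, 10.52 and 10.75 (difference 0.14 ± 0.13), and Cd34 differed by -0.25 ± 0.11. Il7r, the receptor for IL-7, was the most variable, with 9.35, 8.80 and 9.18 and then 7.50, 6.89 and 9.70 (difference -1.08, or -0.59 without the passage 10 array of replicate 2). The values of Itgam, Fcgr3 and Fcgr2b belong to proteins used in the sort and are no independent readout of the cells, whereas Kit, Cd34 and Il7r are not in the stated gate (the marrow was enriched for Kit before the cultures began).

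The genes that handle DNA methylation had no shared direction, with 12 positive and 14 negative of 26. Uhrf1, which brings Dnmt1 to replicated DNA, measured 9.23, 9.40 and 9.40 and then 8.90, 8.91 and 8.60 (difference -0.54 ± 0.14, adjusted p = 0.166). Hells, a chromatin remodeller of the same process, differed by -0.59 ± 0.17, both without overlap. Cxxc5, a CpG-binding protein, differed by 0.42 ± 0.11. Among stem cell genes, Meis1, a homeobox partner of Hox proteins, measured 7.18, 7.79 and 7.53 and then 7.45, 5.82 and 6.64 (difference -0.87 ± 0.35; -0.37 without the passage 10 array of replicate 2), with the pair of replicate 1 on the other side of 0.

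The arrays labelled Tet2-/- went through the same passages, and their values are given side by side from the same fit. In them 1339 genes passed, against 7 in the floxed arrays. Mitosis genes had a median of -0.44 with 70 of 71 negative, replication genes -0.39 with 58 of 60 negative, and histone genes -0.56 with 17 of 17 negative. The floxed values were -0.49, -0.38 and -0.42. The eosinophil list had a median of 0.31 in the Tet2-/- arrays and -0.65 in the floxed ones, and Cdkn2a differed by 0.0003 and 0.45. No gene of these 4 lists, nor Cdkn2a, passed the test of the difference between genotypes, and the count of calls does not show that the genotypes differ.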

How the data were processed

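Each sample was hybridised to a Mouse Gene ST 2.0 array, with 100 ng of total RNA as input. Per the submitters' processing notes, the authors used RMA in Affymetrix Power Tools, and the deposited values are log2 expression values, used here unaltered. The sources used here give no versions or library files for this step.

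Of 41345 rows, 23521 had 1 gene symbol (1814 several, 16010 none). Gene IDs matched 23328 of these to RefSeq's table for GRCm38.p6, and 193 kept the annotation's symbol. Rows were kept if their average across the series reached the 30th percentile (log2 4.70), and the row with the highest mean stood for a gene, which left 16860 genes.

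A linear model with group means and, as a fixed block, the replicate number was fitted with limma 3.58.1 (R 4.3.3) to the 12 arrays of the series (6 residual and 3.93 prior degrees of freedom); p-values are limma's, two-sided and adjusted by Benjamini-Hochberg, with 0.05 as the threshold. The block is the main fit because equal numbers were taken as pairs. All 18 same-number correlations of deviations were 0.20 or above, while limma's consensus correlation for the number as a random effect was 0.123. In that limma fit the smallest adjusted p was 0.190. The steps were tested on simulated data.

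The lists, the comparison and the choice of what to describe were made with earlier results of these data known. Named genes are Tet2, the genes that passed, the 10 largest differences in each direction with 3 equal pair signs and no overlap, members of each list with the smallest p and against its direction, and the gate's surface genes. Members named as the extremes of a role or as classical markers were chosen after their values were seen.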

Additional observations from a re-analysis of the deposited data

Results flagged for a closer look

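Ifitm3 was the only gene whose passage difference itself differed between the genotypes past the threshold: the Tet2-/- minus Tet2fl/fl difference of passage effects was -1.35 (adjusted p = 0.0432, limma with the replicate block, 1 of 16860 genes). The 3 floxed pairs were higher at passage 10 by 0.62, 0.21 and 0.70, and the 3 Tet2-/- pairs were lower. Its cause was not tested.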

How the results depend on the processing

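The count of genes past the adjusted threshold, 7 with the block, depended on the setting. No replicate block gave 0 (smallest adjusted p 0.317), as did the block as a random effect, the block fitted to only the 6 Tet2fl/fl arrays, equal array medians, quantile normalization and no filter on low rows; over these fits the lowest adjusted p of the 7 genes was 0.0568. A filter at the 50th percentile gave 59, the mean of a gene's rows 32, array weights 97 and limma's trend and robust options 119. Leaving out single arrays or replicate numbers gave 0 to 64. The cause of these shifts was not tested. Genes at an unadjusted p under 0.05 numbered 1285 higher and 1080 lower; the higher count was 824 with only the 6 arrays, and leaving out arrays or numbers gave 623 to 1818 higher and 628 to 1299 lower.

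The medians of the lists described kept their sign in the fits with equal array medians and with quantile normalization, except those of the primary granule list (0.0031 with equal medians), the DNA methylation list (0.0039 with quantile normalization) and the matrix list (0.0033 and 0.027). Some genes near 0 turned sign: with array weights Kifc1 was 0.0069 and Fcgr3 -0.031. Leaving out arrays or numbers gave -0.11 to 0.0038 for Kifc1, -0.038 to 0.073 for Fcgr3, -0.023 to 0.14 for Fcgr2b, -0.16 to 0.35 for H2ac1, -0.47 to 0.36 for Itgam, -0.51 to 0.40 for Ly6g and -0.16 to 0.072 for Ly6c2. The limits are 3 arrays a group, pairs known only by their numbers, and levels near the lower end of the scale, where RMA values compress differences.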
